A study of Danio rerio with 2 samples.

Results

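The genes described here are the endoplasmic reticulum (ER) glucosidases and the cargo lectins that follow them in the early secretory pathway, chosen by name: mogs, ganab, prkcsh, lman1, lman2, lman2la and lman2lb. All 7 were found once each among the 17822 genes of the authors' table of cluster means and among the 27771 features of the raw count matrices. They were measured in trunk cells of zebrafish embryos at 27 hours post fertilization (hpf), sorted by fluorescence for the endothelial kdrl reporter after dissociation with liberase, and sequenced on the 10x droplet platform, which reads transcript 3′ ends. The mutant library came from fish with the miR-223(ya303) allele, an activator line Tg(miR-223:KalTA4)ya363, the eGFP responder Tg(5xUAS:eGFP)nkuasgfp1a and the membrane mCherry reporter Tg(kdrl:hras-mCherry)s896. The wildtype library came from fish with the activator allele Tg(miR-223:KalTA4)ya362, the same responder and the same kdrl reporter. Both groups therefore carried the activator, the responder and the kdrl transgene, and the activator allele also differed between them. The number of embryos pooled was not given, the kdrl promoter decided which cells were sorted, and the targeted microRNA was not analysed here.

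N-glycans reach nascent proteins in the ER as a branched sugar with terminal glucose residues. Glucosidase I removes the outermost glucose and glucosidase II the next one, which lets calnexin and calreticulin hold the protein while it folds. Glucosidase II also removes the last glucose, which ends that hold. Folded glycoproteins are then gathered by membrane lectins that bind high-mannose sugars and load them into vesicles bound for the Golgi. miR-223 is a microRNA known from myeloid blood cells, and the study's title concerns N-glycans and the formation of blood stem cells from endothelium.

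Each group was 1 library, so every difference compares 2 libraries, has no replicate check and no p-value, and genotype and batch cannot be told apart. The table held 6125 mutant and 6227 wildtype cells with 44023469 and 42162627 UMIs (unique molecular identifiers, 1 per captured transcript end) in 15 clusters. The matrices held 9176 mutant and 8702 wildtype barcodes with medians of 9162.5 and 7315.5 UMIs, and 98 barcode sequences occurred in both libraries. Levels are CPM, the UMIs of a gene scaled to a common total of the UMIs of the same cells (counts per 1e6 UMIs), with exact Poisson 95% intervals. Folds are mutant over wildtype CPM with exact conditional 95% intervals, and all intervals cover counting error only and are too narrow where cells differ. A gene was compared where its mean was at least 5 CPM, and 1.5-fold in either direction is called past the fold. Clusters were named here from marker genes, and the names need not be those of the study. The endothelial-like class held 6 clusters (0, 1, 2, 3, 5 and 6), myeloid-like held 2, the other named classes held 1 each, and cluster 9 stayed unnamed. In cluster 9 10 of 10 neural markers were raised. Its 10 leading genes held 0 of them and 1 marker of another class, the cartilage and notochord gene col2a1a. The libraries divided some of the endothelium between clusters, with 86.7% of the cells of cluster 0 from the mutant library and 98.4% of those of cluster 2 from the wildtype library. In the sum of the 6 clusters, the 10 endothelial markers used for naming added up to 3545 CPM in the mutant library and 3496 CPM in the wildtype library, and none was at 0. These markers gave the clusters their name, so their sum is no separate evidence for it. The erythroid markers, globin genes among them, summed to more there, 7364 CPM (mutant) and 9119 CPM (wildtype). The epidermal markers summed to 2328 CPM (mutant) and 2457 CPM (wildtype), and the other non-endothelial lists to less.

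In endothelial-like cells, glucosidase and lectin transcripts were mostly at close levels in the mutant and wildtype libraries. The lectin gene lman1 was higher in the mutant library and the glucosidase II catalytic subunit gene ganab was lower. No compared member (0 of 6) lay past the fold, where 8.64% of the 7064 features compared did so (5.42% higher and 3.21% lower in the mutant library). The median log2 ratio of the members was 0.09, beside 0.06 over all features.

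Glucosidase I is encoded by mogs (ENSDARG00000060252). In endothelial-like cells mogs stood at 14.4 CPM in the mutant library (13 to 15.9, 392 UMIs) and 12.5 CPM in the wildtype library (11.4 to 13.8, 408 UMIs). The fold was 1.15 (0.994 to 1.32), an interval that includes no difference. Among single endothelial-like clusters mogs was higher in the mutant library in 2 of 6 and lower in 4. In cells kept from the raw matrices it was higher in 4 of 6 and lower in 2. The summed fold there was 1.14 (1.002 to 1.29), an interval that just left out no difference. Over the 14 clusters with at least 30 cells in each library, mogs ranged between 4.81 and 37.6 CPM (median 15.3) in the mutant library and between 3.69 and 31.3 CPM (median 14.6) in the wildtype library. The muscle-like cluster was lowest in both libraries, with 4 mutant and 2 wildtype UMIs, and its intervals overlapped those of endothelial-like cluster 1. The highest mutant value, in the epidermal-like cluster, rested on 14 UMIs against 3 UMIs in the wildtype library, and in the raw matrices the direction there was the other way, with a fold of 0.921. The myeloid-like cluster 11 had 41.9 CPM of mogs in the mutant library (31.9 to 54.0) and 78.2 CPM in the wildtype library (41.6 to 134). That wildtype value came from 13 UMIs in 18 cells. In cells kept from the raw matrices, cluster 11 had 28.8 CPM in the mutant library (24.5 to 33.8, 154 UMIs). The wildtype library had 31.5 CPM there (24.9 to 39.4, 77 UMIs).

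**Figure D1:**
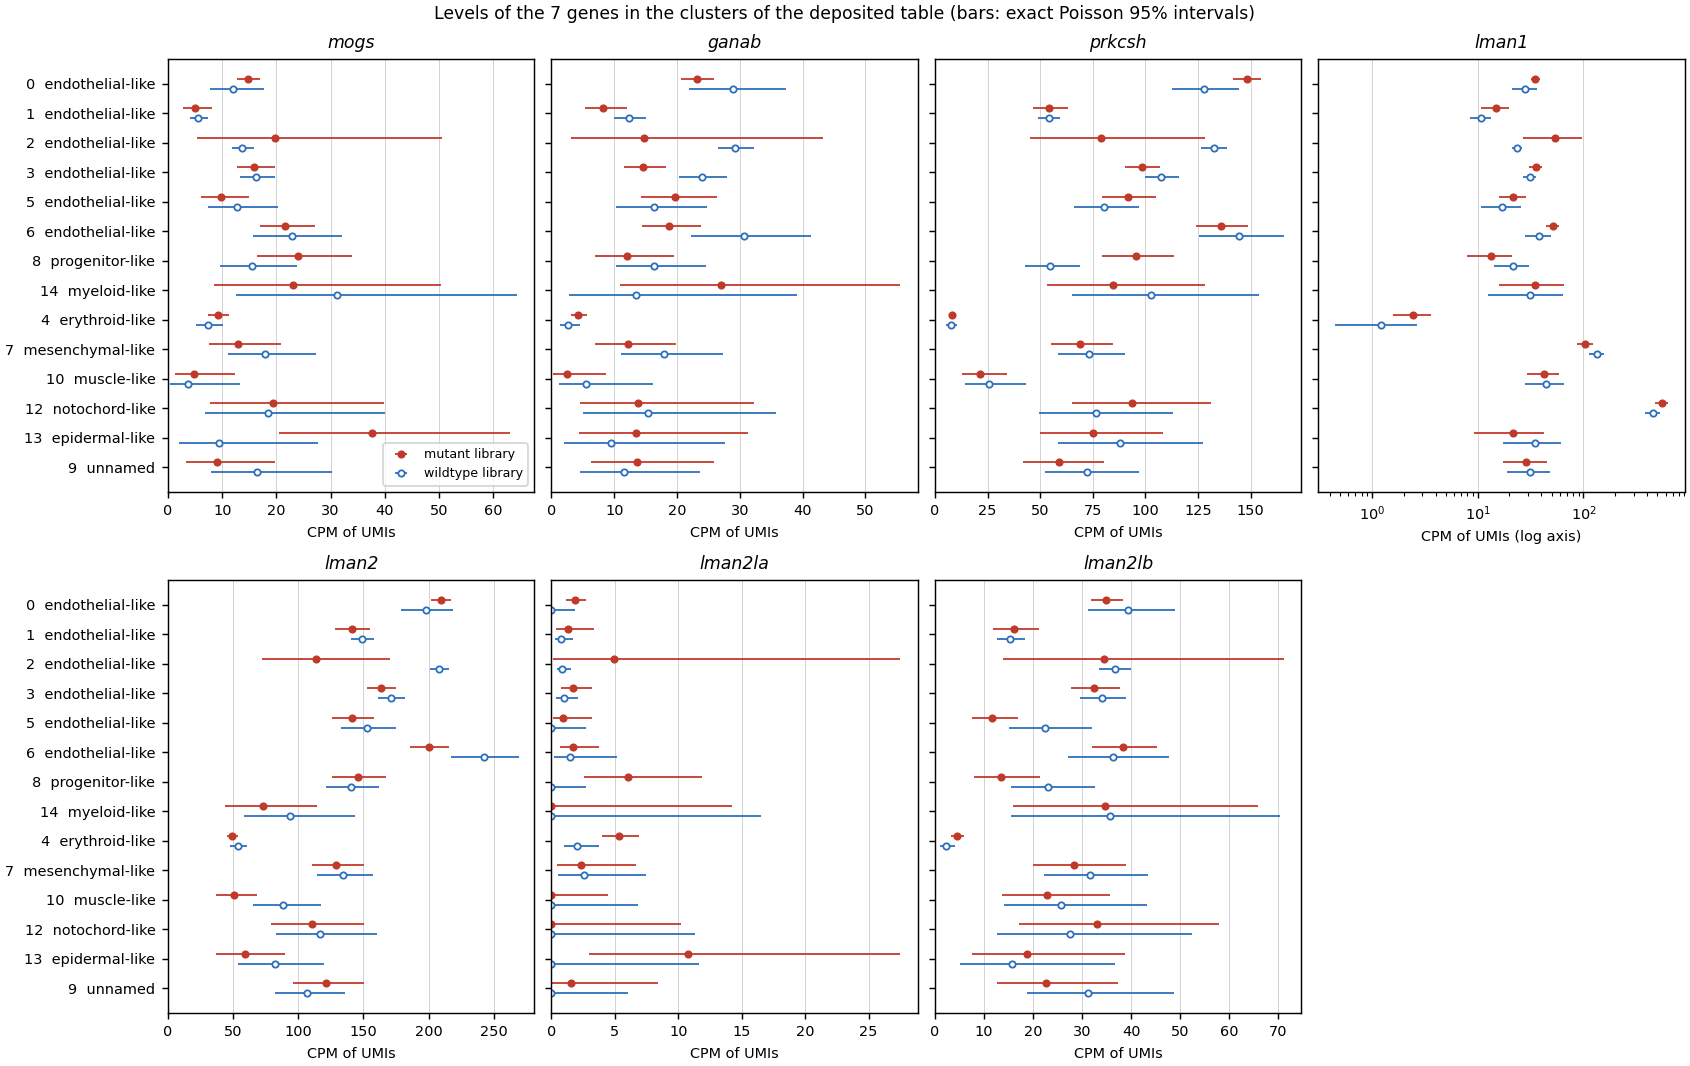
Level of each of the 7 genes in CPM of UMIs (horizontal axes, log scale for lman1) in the 14 clusters with at least 30 cells in each library, with the mutant library as filled points, the wildtype library as open points and exact Poisson 95% intervals as bars. lman1 stands at 547 CPM (mutant) and 454 CPM (wildtype) in the notochord-like cluster, and 5 of the genes reach their lowest wildtype level in the erythroid-like cluster.

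Glucosidase II is a pair of proteins, the catalytic alpha subunit from ganab (ENSDARG00000076811) and the beta subunit from prkcsh (ENSDARG00000004470), which keeps the enzyme in the ER and binds mannose. The ganab level in endothelial-like cells was 18.9 CPM in the mutant library (17.3 to 20.6, 516 UMIs) and 23.8 CPM in the wildtype library (22.1 to 25.5, 774 UMIs). The fold was 0.795 (0.709 to 0.889), and the 2 intervals of the levels did not overlap. ganab was lower in the mutant library in 5 of the 6 endothelial-like clusters. In cluster 3, which carried arterial markers, ganab stood at 14.6 CPM in the mutant library (11.6 to 18.3) and 23.9 CPM in the wildtype library (20.2 to 28). That cluster gave a fold of 0.613 (0.460 to 0.810), and cluster 6 one of 0.611. Cluster 5 was the exception, with 19.7 CPM in the mutant library and 16.4 CPM in the wildtype library, from 44 and 22 UMIs, and in cells kept from the raw matrices ganab was lower in the mutant library in 6 of 6. A second zebrafish ganab gene is listed in RefSeq (GRCz12tu), with the synonym zgc:171967. A feature of that name had 2.60 CPM in the mutant library and 2.89 CPM in the wildtype library, below the level at which genes were compared. Reads shared between the copies could be split in the authors' counting, so both values are uncertain.

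In the sum of the endothelial-like clusters, the partner gene prkcsh was not lower alongside ganab. Its endothelial-like level was 121 CPM in the mutant library (117 to 126, 3313 UMIs) and 107 CPM in the wildtype library (104 to 111, 3494 UMIs), a fold of 1.13 (1.08 to 1.19). Single clusters were divided, with prkcsh higher in the mutant library in 3 of 6 and lower in 3. With the clusters weighted equally its fold was 0.939, and over all clusters it was 0.956, so its direction depended on how clusters were combined. Cluster 3, the arterial one, gave 0.914 for prkcsh.

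Within a library, the count of prkcsh per ganab UMI does not depend on the total used for scaling, although capture can differ between the 2 genes. In endothelial-like cells it was 6.42 in the mutant library (5.85 to 7.06) and 4.51 in the wildtype library (4.17 to 4.89). The ratio was higher in the mutant library in 5 of 6 endothelial-like clusters, among them cluster 3 with 6.72 in the mutant library and 4.50 in the wildtype library. In each single cluster the mutant and wildtype intervals overlapped, and the mutant ratio of cluster 2 rested on 3 ganab UMIs. Cluster 5 had 4.66 in the mutant library and 4.91 in the wildtype library. In the cells kept from the raw matrices the ratio was 6.10 in the mutant library (5.61 to 6.63) and 4.52 in the wildtype library (4.21 to 4.85). In the erythroid-like cluster of the table the ratio was 1.95 in the mutant library (1.34 to 2.89) and 2.85 in the wildtype library (1.48 to 5.84), an interval that includes the wildtype endothelial-like value. In the kept erythroid-like cells it was 4.24 in the mutant library (3.62 to 4.99) and 4.18 in the wildtype library (3.41 to 5.17), so the low table values did not hold there. Those kept cells were more numerous and deeper, 2777 mutant and 1318 wildtype cells with medians of 27949 and 31050 UMIs. The table had 1117 and 542 erythroid-like cells with means of 9115 and 9052 UMIs.

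**Figure D2:**
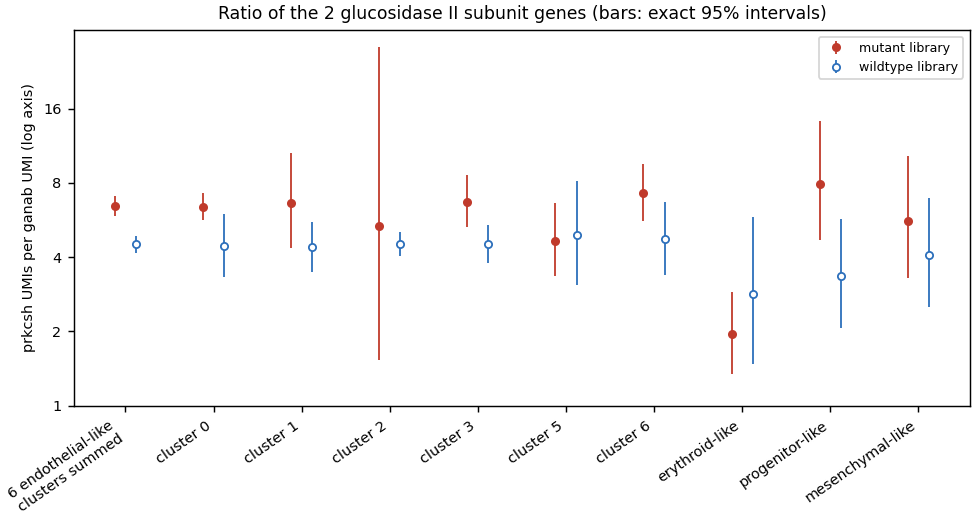
Number of prkcsh UMIs per ganab UMI (vertical log axis) in the summed endothelial-like clusters, in each of them and in 3 other classes, for the mutant library (filled points) and the wildtype library (open points), with exact 95% intervals as bars. The summed endothelial-like value is 6.42 in the mutant library and 4.51 in the wildtype library. In each single endothelial-like cluster the mutant and wildtype intervals overlap, and in cluster 5 the wildtype value is the higher one.

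The subunit genes varied together over the clusters. Over 28 values (14 clusters in 2 libraries, which share libraries and depth), the Pearson correlation of log2(CPM + 1) between ganab and prkcsh was 0.88. Among the 3863 genes that averaged 20 CPM or more over these values, the patterns most like ganab were those of rab5aa (0.90), prkcsh (0.88) and atf6 (0.88). For prkcsh they were si:dkey-7j14.6 (0.96), mtdha (0.96) and rab5aa (0.95), and for mogs brd2a (0.82), galnt7 (0.79) and gpr108 (0.77).

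LMAN1, also called ERGIC-53, is a mannose-binding receptor that carries glycoproteins such as clotting factors from the ER to the Golgi in mammals. Its gene lman1 (ENSDARG00000069980) showed the highest fold of the compared members in endothelial-like cells. It stood at 34.0 CPM in the mutant library (31.8 to 36.2, 928 UMIs) and 22.7 CPM in the wildtype library (21.1 to 24.4, 740 UMIs), a fold of 1.49 (1.36 to 1.65). That value lies just under 1.5-fold, and its intervals did not overlap. lman1 was higher in the mutant library in 6 of 6 endothelial-like clusters, from 1.14 (0.927 to 1.40) in cluster 3 to a cluster 2 value that rested on 11 mutant UMIs. The cluster values other than that one were smaller than the summed one, and the share of each cluster differed between the libraries. In clusters 0, 1, 3, 5 and 6 the intervals of the mutant and wildtype lman1 levels overlapped. Cluster 6 held 51.2 CPM in the mutant library (44.0 to 59.4) and 37.8 CPM in the wildtype library (28.3 to 49.4). Cluster 1 had the lowest endothelial-like levels, 14.8 CPM in the mutant library and 10.8 CPM in the wildtype library. In cells kept from the raw matrices lman1 was also higher in the mutant library in 6 of 6. Cluster 3 was nearly level there, at 26.5 CPM (mutant) and 25.8 CPM (wildtype). Cluster 0 had 35.1 CPM (mutant, 32.3 to 38.0) and 23.8 CPM (wildtype, 18.4 to 30.2) there.

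Cells showed the same order at a common depth. In endothelial-like cells thinned to 2000 UMIs each, 6.61% of 4143 mutant cells and 4.76% of 4687 wildtype cells had at least 1 lman1 UMI, a difference of 1.86 percentage points (0.89 to 2.84). Shallower cells, 329 mutant and 519 wildtype, were left out, and without thinning the shares were 20.6% and 15.5%. Erythroid-like cells at that depth had 0.506% (of 2769 cells) in the mutant library and 0.0761% (of 1314 cells) in the wildtype library. Both were below the endothelial-like shares of both libraries, and the wildtype share was too low to compare between libraries. Without thinning, lman1 in kept erythroid-like cells had a fold of 1.04 (0.811 to 1.35), from 191 mutant and 95 wildtype UMIs. For ganab the thinned shares were 3.43% in the mutant library and 4.80% in the wildtype library, a difference of -1.37 points (-2.20 to -0.54). Erythroid-like cells had ganab in 0.722% and 0.761% of cells at that depth in the mutant and wildtype libraries.

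**Figure D3:**
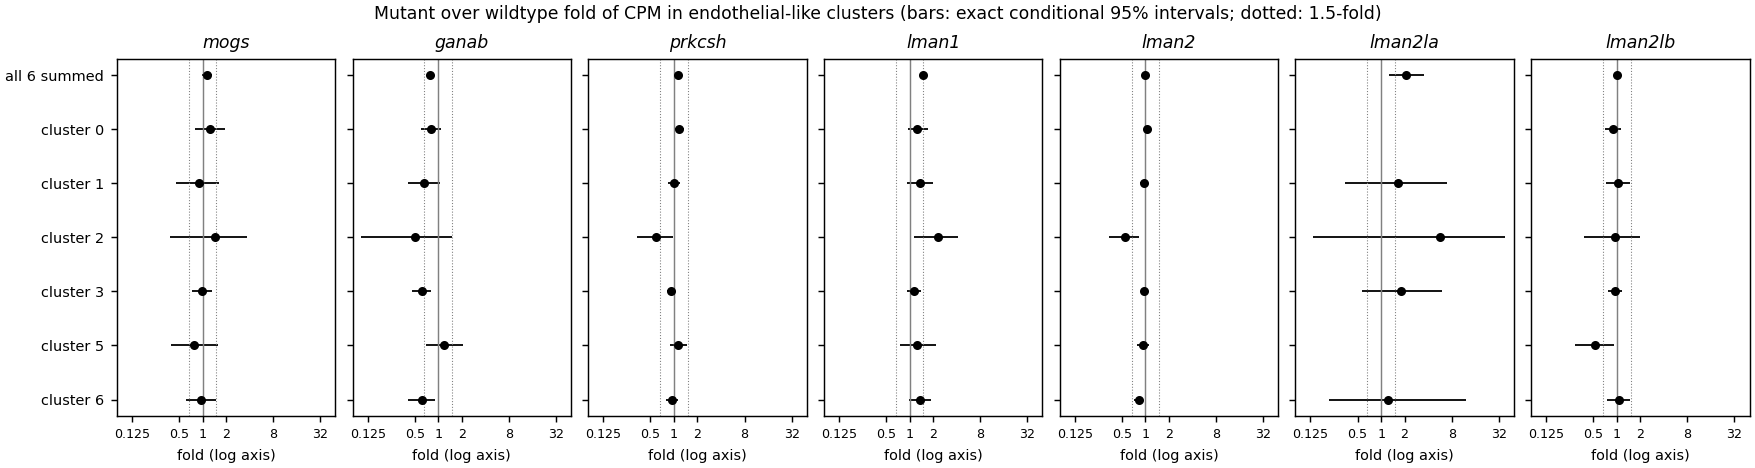
Fold of CPM, mutant over wildtype (horizontal log axes), for each gene in the summed endothelial-like clusters and in each cluster, with exact conditional 95% intervals as bars and dotted lines at 1.5-fold. All lman1 points lie right of no difference and 5 of 6 ganab cluster points lie left of it; lman2la has no point in clusters 0 and 5, where the wildtype count was 0.

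The highest lman1 levels were outside the endothelium. In the notochord-like cluster lman1 stood at 547 CPM in the mutant library (473 to 628, 198 UMIs) and 454 CPM in the wildtype library (384 to 533, 148 UMIs). These levels were 16.1-fold (13.7 to 18.8) above the endothelial-like ones in the mutant library and 19.97-fold (16.6 to 23.9) above them in the wildtype library. Between the libraries the notochord-like levels overlapped in their intervals. The cluster held 48 mutant and 46 wildtype cells, and 8 of its 9 naming markers were raised. In thinned cells, lman1 was detected in 29 of 51 mutant notochord-like cells (56.9%, exact interval 42.2 to 70.7) and in 25 of 47 wildtype ones (53.2%, 38.1 to 67.9). At least 3 lman1 UMIs were found in 5 of the 51 mutant cells and 3 of the 47 wildtype cells, and in no thinned endothelial-like cell (0 of 4143 mutant and 0 of 4687 wildtype). The notochord markers used for naming, of which 9 of 10 were in the table and acana was at 0 in both libraries, summed to 66.6 CPM in mutant and 39.6 CPM in wildtype endothelial-like cells. Over the 6 clusters that sum ranged between 34.5 and 183 CPM in the mutant library and between 26.5 and 179.6 CPM in the wildtype library, against 46016 CPM (mutant) and 47735 CPM (wildtype) in the notochord-like cluster. Both these markers and lman1 were thus higher in mutant than in wildtype endothelial-like cells, and the part of notochord RNA in the lman1 difference was not tested. The 10 mesenchymal markers summed to 111 CPM in mutant and 97.7 CPM in wildtype endothelial-like cells.

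Mesenchymal-like cells came next in both libraries, with 103 CPM of lman1 in the mutant library (86.5 to 122) and 133 CPM in the wildtype library (113 to 156). That was 3.04-fold above the endothelial-like level in the mutant library and 5.85-fold above it in the wildtype library. Between libraries the mesenchymal-like fold was 0.776 (0.612 to 0.984), opposite in direction to the endothelial-like one, and in cells kept from the raw matrices it was 0.951 (0.769 to 1.18). The erythroid-like cluster was lowest, at 2.46 CPM in the mutant library and 1.22 CPM in the wildtype library. Between these ends, the intervals of myeloid-like cluster 14 and of endothelial-like clusters 0, 3 and 6 overlapped that of the muscle-like cluster in each library. The other myeloid-like cluster, 11, had 65.3 CPM in the mutant library (52.7 to 80.1) and 96.2 CPM in the wildtype library (55.0 to 156, 18 cells). In the kept raw cells cluster 11 had 46.0 CPM (mutant, 40.5 to 52.2) and 66.7 CPM (wildtype, 56.8 to 77.7). Muscle-like cells had 28.4 CPM (mutant, 21.9 to 36.1) and 23.7 CPM (wildtype, 17.9 to 30.8) there. The genes with the lman1-like pattern were ier3ip1 (0.90), tgfbi (0.89) and plod1a (0.88), and without the notochord-like cluster their correlations were 0.81, 0.81 and 0.77.

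LMAN1 works in mammals with a small soluble partner, MCFD2. The partner gene mcfd2 had 60.3 CPM in endothelial-like cells of the mutant library and 44.6 CPM in those of the wildtype library, a fold of 1.35 (1.26 to 1.45). In the notochord-like cluster mcfd2 stood at 163 CPM in the mutant library and 144 CPM in the wildtype library, 2.70-fold and 3.23-fold above the endothelial-like levels of the same libraries. The count of mcfd2 per lman1 UMI was 1.77 in mutant and 1.96 in wildtype endothelial-like cells. In notochord-like cells it was 0.298 in the mutant library and 0.318 in the wildtype library. The partner was thus raised less than the lectin gene in the notochord-like cluster of each library.

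LMAN2, or VIP36, is a lectin of the ER, intermediate compartment and Golgi that binds high-mannose glycans. Its gene lman2 (ENSDARG00000061854) was at equal levels in the endothelial-like sums, 185 CPM in the mutant library (180 to 191, 5065 UMIs) and 186 CPM in the wildtype library (181 to 191, 6045 UMIs). The fold of 0.999 had an interval from 0.962 to 1.04. In single clusters lman2 was lower in the mutant library in 5 of 6, and in cluster 6 the fold was 0.827 (0.725 to 0.944), with 200.4 CPM in the mutant library and 242 CPM in the wildtype library. With the clusters weighted equally the fold was 0.864. Cluster 0 had the highest mutant level, 209.5 CPM, and cluster 6 the highest wildtype level. The lowest level was erythroid-like in both libraries, 49.4 CPM in the mutant and 54.0 CPM in the wildtype, with the muscle-like level of 50.5 CPM in the mutant library not apart from it. The lman2 pattern was most like rnf10 (0.95), antxr1c (0.90) and tjp1a (0.89), and its correlation with lman1 was 0.25.

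The LMAN2-like lectin, VIPL in mammals, is an ER-resident relative of LMAN2, and zebrafish have 2 genes of this name, lman2la (ENSDARG00000102657) and lman2lb (ENSDARG00000088663). In endothelial-like cells lman2lb was level between libraries, with 30.9 CPM in the mutant (28.8 to 33.0) and 30.7 CPM in the wildtype (28.9 to 32.7) and a fold of 1.005 (0.916 to 1.102). Of the endothelial-like clusters, cluster 5 alone had a lman2lb interval that left out no difference, 0.520 (0.295 to 0.910), with 26 mutant and 30 wildtype UMIs. Over the 14 clusters lman2lb ranged between 4.52 and 38.3 CPM in the mutant library and between 2.24 and 39.3 CPM in the wildtype library, lowest in erythroid-like cells. Patterns most like lman2lb were those of ssu72 (0.93), rnf13 (0.89) and chmp6b (0.86).

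lman2la was the rarest member and differed most between the libraries. In endothelial-like cells 46 mutant UMIs gave 1.68 CPM (1.23 to 2.25) and 26 wildtype UMIs gave 0.80 CPM (0.52 to 1.17). The fold was 2.11 (1.28 to 3.55), at a level below that at which genes were compared. lman2la was higher in the mutant library in 6 of 6 endothelial-like clusters, each from 24 UMIs or fewer, and cluster 2 from 1 mutant UMI. In cells kept from the raw matrices it was higher in 5 of 6 and lower in cluster 2, which had 0 mutant and 13 wildtype UMIs. Over the 14 clusters of the table lman2la was higher in the mutant library in 10 and lower in 1. Summed over all clusters, 119 mutant and 39 wildtype UMIs gave a fold of 2.92 (2.02 to 4.31). Summed over every barcode of the raw matrices, lman2la had 2.05 CPM in the mutant library (256 UMIs) and 0.87 CPM in the wildtype library (80 UMIs). The fold was 2.36 (1.83 to 3.07), while every other member had a fold below 1 in that sum.

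In erythroid-like cells all members but lman2la were lower than in endothelial-like cells. Against endothelial-like cells of the same library, 6 of 6 compared members were at least 1.5-fold lower in erythroid-like cells of the mutant library and 6 of 6 in those of the wildtype library. Over all features compared, 46.8% were that much lower in the mutant library and 58.5% in the wildtype library. The globin genes took 37.0% of the erythroid-like UMIs in the mutant library and 46.4% in the wildtype library, which lowers the share left for every other gene. prkcsh was 14.7-fold lower in erythroid-like than in endothelial-like cells of the mutant library, at 8.25 CPM, and 14.2-fold lower in the wildtype library, at 7.54 CPM. As a share of the endothelial-like level, those prkcsh values were 0.0680 in the mutant library and 0.0703 in the wildtype library. They came to 0.106 (mutant) and 0.129 (wildtype) without globin and mitochondrial genes, and to 0.0885 (mutant) and 0.109 (wildtype) in the kept raw cells. mogs was the least reduced, at 0.636 of the endothelial-like level in the mutant library and 0.585 in the wildtype library. Counted without globin and mitochondrial genes, those mogs values were 0.996 (mutant) and 1.08 (wildtype), while in the kept raw cells both were 0.394.

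For lman2la the table gave the other direction. Its erythroid-like level was 5.30 CPM in the mutant library (54 UMIs) and 2.04 CPM in the wildtype library (10 UMIs), which was 3.15-fold (2.09 to 4.77) and 2.55-fold (1.098 to 5.47) above the endothelial-like level of each. In cells kept from the raw matrices the erythroid-like levels were nearer to the endothelial-like ones, 2.15 CPM beside 1.93 CPM in the mutant library and 1.05 CPM beside 0.78 CPM in the wildtype library. Between the libraries, the erythroid-like fold of lman2la was 2.60 (1.31 to 5.73) in the table and 2.05 (1.45 to 2.96) in the kept cells. Erythroid-like cells made up 32.8% of the kept mutant cells and 17.5% of the kept wildtype cells.

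Between libraries, 0 of 3 compared members lay past the fold in erythroid-like cells, where 42.9% of all features did (40.0% higher and 2.93% lower in the mutant library) and the median log2 ratio of all features was 0.43. The median of these compared members there was 0.11. Members below 5 CPM were left out of both values, and each had a fold above 1.5. The folds were 1.59 for ganab (0.841 to 3.23) and 2.01 for lman1 (0.804 to 5.98). They were 2.01 for lman2lb (1.028 to 4.31) and 2.60 for lman2la, from 13 wildtype UMIs or fewer each. In the kept raw cells only lman2la of these was past the fold. Whether the members as a set shared the shift of all features was not tested. The hematopoietic progenitor-like cluster, with 184 mutant and 183 wildtype cells, had 4 of 6 compared members past the fold, 2 higher and 2 lower, beside 24.7% of all features. prkcsh was the one of these whose interval left out no difference, with 95.3 CPM in the mutant library (127 UMIs) and 54.8 CPM in the wildtype library (74 UMIs), a fold of 1.74 (1.295 to 2.35). mogs had a fold of 1.54 in this cluster, lman1 one of 0.629 and lman2lb one of 0.588. In cells kept from the raw matrices prkcsh came to 1.22 (0.993 to 1.49) there, and lman1, at 0.625 (0.385 to 0.990), was the 1 member past the fold. The share of all features past the fold was not computed in those kept cells. The least common lectin, lman2la, had 8 mutant UMIs and 0 wildtype UMIs in the table. That was 2.70-fold above a floor of 3 counts in the wildtype library, and the interval of the fold began at 1.73. In the kept raw cells 14 mutant and 3 wildtype UMIs of lman2la gave a fold of 6.56 (1.83 to 35.6).

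In muscle-like cells, 4 of 6 compared members were at least 1.5-fold lower than in endothelial-like cells of the mutant library and 4 of 6 in the wildtype library, beside 48.2% and 51.3% of all features. lman1 was not among them, at 1.24-fold (0.858 to 1.74) the endothelial-like level in the mutant library and 1.95-fold (1.24 to 2.92) in the wildtype library. The mutant interval includes no difference. In cells kept from the raw matrices muscle-like lman1 was not above the endothelial-like level. It stood at 28.4 CPM beside 33.7 CPM in the mutant library and 23.7 CPM beside 24.4 CPM in the wildtype library.

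Genes that act before and after the members were described in endothelial-like cells from lists of pathway genes. Of 10 compared genes of the calnexin and calreticulin cycle, the step that glucosidase II opens and closes, 8 were higher in the mutant library. One of them, pdia3, a disulfide isomerase that works with these chaperones, was past the fold at 1.60 (1.56 to 1.63), with 716 CPM in the mutant library and 449 CPM in the wildtype library. The median log2 ratio of this list was 0.22, and 61.0% of all compared features were higher in the mutant library. canx, the membrane chaperone calnexin, was level at 1.01, while the soluble chaperone gene calr3b had a fold of 1.42. The lowest gene was uggt1, the sensor that puts glucose back on unfolded glycoproteins, at 0.796 (0.652 to 0.970). The related gene uggt2 of the same list went the other way, at 1.18 (1.005 to 1.40).

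Cargo receptors and coat proteins of ER exit had a median log2 ratio of 0.20, with 15 of 19 compared genes above their wildtype level in the mutant library. Of these, kdelr3, a receptor that returns ER proteins from the Golgi, was past the fold at 1.61 (1.35 to 1.94), and none was past it in the lower direction (0 of 19). Mannose trimming and ER-associated degradation genes had 0 of 11 past the fold and a median of 0.10. Over the 7064 features compared, 8.64% were past the fold and 3.21% were past it in the lower direction. Of the same features 61.0% were higher in the mutant library by any amount, and their median was 0.06. No gene of the other alpha-glucosidases reached the level for comparison. Among ER stress response genes, the median was 0.21 and 12 of 18 had a fold above 1, beside 61.0% of all features compared. pdia6, a disulfide isomerase, stood at 263 CPM in the mutant library and 119 CPM in the wildtype library, a fold of 2.22 (2.13 to 2.31), and creld2 had a fold of 1.72 (1.56 to 1.89). hspa5, the ER chaperone BiP, had a fold of 0.937 (0.913 to 0.962), and atf4b the lowest of that list, 0.738 (0.714 to 0.763). The part of these genes in the member differences was not tested.

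**Figure D4:**
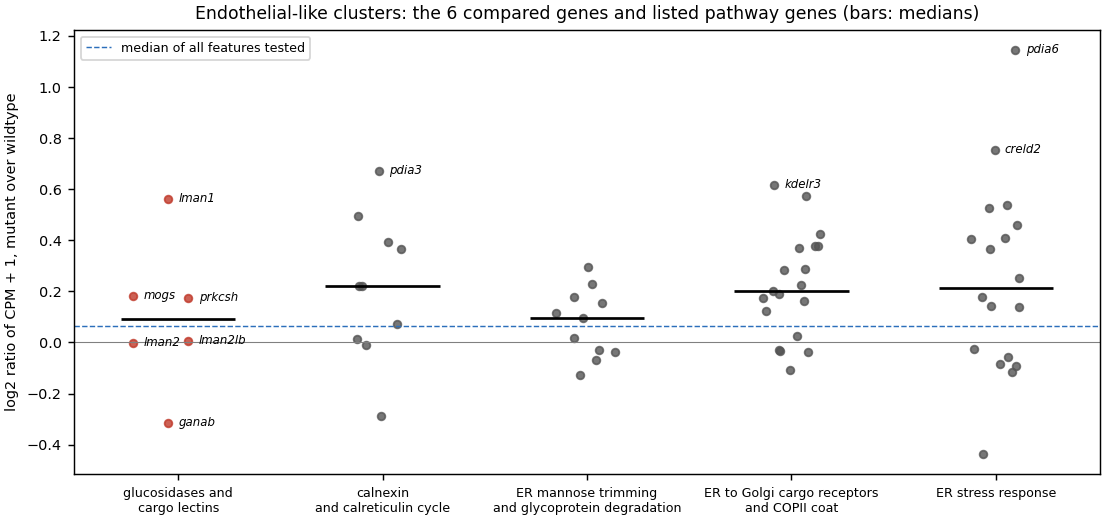
Log2 ratio of CPM + 1, mutant over wildtype (vertical axis), in endothelial-like cells for the 6 compared members (red) and for the compared genes of 4 pathway lists (grey), with list medians as bars and the median of all compared features, 0.06, as a dashed line. lman1 and ganab are the outermost members, and pdia6, creld2, pdia3 and kdelr3 are the list genes past 1.5-fold.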

How the data were processed

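The labels describe trunk cells of 1 mutant and 1 wildtype library at 27 hpf, prepared with a 10x 3′ kit. Per the submitters' processing notes, bcl2fastq, Cell Ranger, Seurat and GRCz11 were used. The deposited matrices hold raw UMI counts per gene and cell, and their headers give software version 3.0.2. The authors' deposited table is a signal, the mean UMI count per cell of 15 clusters in each library, and its cell filter and clustering are not given in the sources used here. All of its 534660 values became whole UMI sums (within 1e-06) at 1 number of cells per column, and these sums gave CPM. In 64 (mutant) and 90 (wildtype) of 17816 shared genes the sum exceeded that of the matrix, so the table was counted somewhat differently.

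Clusters were named from marker lists, by the mean log2 fold over the lower quartile of clusters (pseudocount 10 CPM) with at least 3 markers raised 2-fold. Among the 10 leading genes, a name also needed at least as many of its own markers as of any other class. Cells of the matrices were kept from 500 detected genes upward and up to 10% of mitochondrial UMIs (8464 mutant, 7520 wildtype, medians 9977 and 8334 UMIs). They were assigned to the 15 clusters by multinomial likelihood over 17272 genes without the members. The kept cells of a class are therefore not the same cells as those of the table. In erythroid-like, muscle-like and myeloid-like clusters their median UMI counts were well above the mean counts per cell of the table. Scrublet (scanpy 1.11.5) marked 2.65% of mutant and 0.519% of wildtype cells; doublets were removed only in an alternative. Log2 ratios have a pseudocount of 1 CPM. Intervals came from scipy 1.17.1, shares have exact binomial ones, and differences of shares Newcombe ones. The fold intervals and the assignment of cells were tested on simulated counts, and the other steps were not. Those counts were drawn from the model that each step assumes. They held no added spread between cells or libraries, so the test cannot show how the steps fare with such spread. Named were all 7 members, list genes past the fold and, for each member, the 3 genes with the most like pattern. Other genes (mcfd2, canx, calr3b, uggt1, uggt2, hspa5, atf4b, zgc:171967) were chosen after their values were seen. The members and lists were chosen with earlier results of these data known. Alternatives were another minimum level, fold, scaling total, cluster choice, cluster weighting, thinning depth and the matrices themselves. Gene names and IDs are those of the files.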

Additional observations from a re-analysis of the deposited data

Results flagged for a closer look

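The difference in lman1 between the libraries had opposite directions in 2 cell classes. In endothelial-like cells lman1 was higher in the mutant library, at 34.0 CPM beside 22.7 CPM in the wildtype library (fold 1.49). In mesenchymal-like cells it was lower, at 103 CPM in the mutant library beside 133 CPM in the wildtype library (fold 0.776). With 1 library in each group the difference between these folds was not tested, and in cells kept from the raw matrices the mesenchymal-like fold was 0.951 (0.769 to 1.18). In the hematopoietic progenitor-like cluster lman1 was also at a lower level in the mutant library, with a fold of 0.629 (0.329 to 1.17) in the table and 0.625 (0.385 to 0.990) in the kept raw cells.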

How the results depend on the processing

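No paired analysis was possible because each group was 1 library, and for the same reason no library could be left out. Of 316 values under alternatives, 260 stayed within their interval or, for counts of members, within 1.5 times. Another 51 moved more, and 5 whose interval left out no difference changed direction. The intervals were of counting error, except for list medians, where the interval came from the spread of the list's genes and not from counting. In endothelial-like cells the count of members past the fold was 1 with no minimum level (lman2la). It was also 1 (lman1) in the 4 clusters with at least 20% of their cells from each library. The mix of those clusters still differed, with 580 mutant and 1444 wildtype cells in cluster 1 and 467 and 180 in cluster 6. In each of them alone the lman1 fold was smaller than in their sum. Over all clusters the folds were 0.956 for prkcsh, 1.22 for lman1, 0.866 for lman2 and 0.883 for lman2lb. With clusters weighted equally they were 0.939 for prkcsh, 0.701 for ganab, 0.864 for lman2 and 0.912 for lman2lb. A median-of-ratios factor gave 0.954 for lman2, and the kept raw cells gave 1.08 for prkcsh. Over 9 settings, the all-cluster sum of the table among them, lman1 lay between 1.22 and 1.54 and ganab between 0.701 and 0.810. The sum over every barcode of the raw matrices, which mixed all cell classes, lay outside these ranges. There lman1 was lower in the mutant library, at 0.890 (0.836 to 0.947), and ganab came to 0.597 (0.550 to 0.649). That sum gave 0.936 for mogs, 0.751 for prkcsh, 0.812 for lman2 and 0.740 for lman2lb. In erythroid-like cells 2 of 6 compared members were past the fold without globin and mitochondrial genes. With the median-of-ratios factor 1 of 3 was past it, and in the main setting 0 of 3. In progenitor-like cells 1 of 6 was past the fold in the kept raw cells. The share of all features past the fold was not computed under these alternatives. Of those 5, direction changed for the endothelial-like prkcsh fold when taken over all clusters (0.956) and with clusters weighted equally (0.939). In the kept raw cells direction changed for lman2 in muscle-like cells (1.04) and mogs in epidermal-like cells (0.921). It also changed for mogs in wildtype erythroid-like over endothelial-like cells, 1.08 without globin and mitochondrial genes. Counting every member fold in the other classes, whatever its interval, direction changed for 10 of 44 in the kept raw cells, 5 of 44 with the median-of-ratios factor and 1 of 44 without globin and mitochondrial genes. Among them in the kept raw cells were prkcsh in muscle-like cells (2.07, the 1 member past the fold there, beside 0.840 in the table), prkcsh (0.871) and ganab (0.858) in erythroid-like cells and ganab in myeloid-like cells (0.768). The cause of these moves was not tested. Counts were low for lman2la, with 46 mutant and 26 wildtype UMIs in endothelial-like cells.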
